A study of Homo sapiens with 4 samples.

Results

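The regions described here are 2832 H2AK119ub peaks of wild-type H1 human embryonic stem cells that were broken up in YTHDF1 knockdown cells. Each lay on chromosomes 1 to 22, was narrower than 20 kb and shared at least 1 base with 2 or more separate peaks of the knockdown list. They made up 8.98% of the 31529 wild-type peaks under 20 kb on these chromosomes, among 32798 wild-type peaks in all. The knockdown list held 34393 peaks. The members were chosen by the overlap of the wild-type with the knockdown peaks, so how often and where these peaks were interrupted is given as a description and was not tested. Every member entered every count unless a sentence says otherwise.

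H1 is an established human embryonic stem cell line, grown here in mTeSR1 medium. The wild-type cells were untreated, and the knockdown cells were H1 cells that carried a YTHDF1 shRNA. The sequence of this shRNA and the time of harvest are not given in the sources used here. Each group had 1 chromatin immunoprecipitation library for H2AK119ub and 1 input library, which was not analysed here. With 1 library per group there is no replicate check, and no p-value is given. The lists hold intervals with a score and no reads, so the depth is unknown, the knockdown itself could not be checked, and markers of stem cells could not be read as expression. A stretch with no knockdown peak is one where none was called, which is not the same as a stretch without the mark.

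H2AK119ub is a single ubiquitin on a lysine in the tail of histone H2A. It is placed by Polycomb repressive complex 1 (PRC1) through RING1 or RNF2, is removed by deubiquitinases such as the BAP1 complex, and in embryonic stem cells is found over CpG-rich starts of silent developmental genes and, more thinly, over much of the genome. Variant PRC1 reaches CpG-rich DNA through KDM2B, which binds unmethylated CG dinucleotides, so the sequence at a gene start is part of how the mark is placed. YTHDF1 is a cytoplasmic reader of m6A, the methylated adenosine of messenger RNA.

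Inside a broken peak, a piece is a stretch that lay in a knockdown peak, an inner gap is a stretch between neighbouring pieces, and an outer edge is a stretch between an end of the wild-type peak and its first or last piece. The promoters below were chosen to show both cases at genes of the lists described later, those whose start lay in an inner gap (TP73, GRM4, FGF6 and EPHB2) and those whose start lay in a piece (EPHB4, PFKFB3, GLI2 and MESP2). Each line holds the 250 bases before an annotated start, 5′ to 3′ on the strand of the gene, from RefSeq on GRCh38.p14, whose coordinates are those of hg38. Capitals mark every CG, a motif that reads the same on both strands.
TP73, start in a gap, chr1:3697796-3698045 (plus strand): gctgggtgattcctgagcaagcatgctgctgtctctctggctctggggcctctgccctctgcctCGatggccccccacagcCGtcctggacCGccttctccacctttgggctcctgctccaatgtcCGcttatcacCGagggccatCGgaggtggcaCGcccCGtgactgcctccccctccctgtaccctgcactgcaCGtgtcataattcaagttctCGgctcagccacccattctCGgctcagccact
GRM4, start in a gap, chr6:34110764-34111013 (minus strand): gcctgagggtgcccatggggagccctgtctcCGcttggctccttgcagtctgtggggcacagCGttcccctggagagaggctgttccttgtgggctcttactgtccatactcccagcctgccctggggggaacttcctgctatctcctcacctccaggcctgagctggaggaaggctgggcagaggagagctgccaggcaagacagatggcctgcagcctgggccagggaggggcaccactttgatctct
FGF6, start in a gap, chr12:4445816-4446065 (minus strand): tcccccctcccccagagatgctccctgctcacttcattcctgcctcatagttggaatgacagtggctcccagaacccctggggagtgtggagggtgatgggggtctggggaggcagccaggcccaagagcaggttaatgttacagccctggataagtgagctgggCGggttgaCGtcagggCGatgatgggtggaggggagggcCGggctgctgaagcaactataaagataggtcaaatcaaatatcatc
EPHB2, start in a gap, chr1:22710588-22710837 (plus strand): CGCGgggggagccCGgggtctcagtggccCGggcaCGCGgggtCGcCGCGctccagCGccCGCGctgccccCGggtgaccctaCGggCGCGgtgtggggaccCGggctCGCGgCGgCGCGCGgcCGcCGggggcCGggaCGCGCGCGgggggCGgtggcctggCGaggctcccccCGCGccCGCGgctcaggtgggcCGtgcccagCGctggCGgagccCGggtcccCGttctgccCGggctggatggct
EPHB4, start in a piece, chr7:100827524-100827773 (minus strand): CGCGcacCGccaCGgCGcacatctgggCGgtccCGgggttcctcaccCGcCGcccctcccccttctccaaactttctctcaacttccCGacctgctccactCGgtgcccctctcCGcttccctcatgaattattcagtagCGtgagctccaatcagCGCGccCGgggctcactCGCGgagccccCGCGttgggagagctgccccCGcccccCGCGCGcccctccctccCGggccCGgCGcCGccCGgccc
PFKFB3, start in a piece, chr10:6144671-6144920 (plus strand): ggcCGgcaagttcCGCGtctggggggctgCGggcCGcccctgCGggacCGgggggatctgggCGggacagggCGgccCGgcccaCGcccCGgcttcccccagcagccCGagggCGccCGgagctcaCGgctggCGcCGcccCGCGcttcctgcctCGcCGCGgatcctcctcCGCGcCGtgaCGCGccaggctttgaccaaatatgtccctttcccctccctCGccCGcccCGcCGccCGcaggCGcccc
GLI2, start in a piece, chr2:120792031-120792280 (plus strand): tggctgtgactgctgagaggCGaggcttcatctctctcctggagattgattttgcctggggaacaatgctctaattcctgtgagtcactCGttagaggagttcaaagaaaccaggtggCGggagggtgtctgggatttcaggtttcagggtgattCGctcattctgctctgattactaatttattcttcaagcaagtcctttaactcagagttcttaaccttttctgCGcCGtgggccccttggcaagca
MESP2, start in a piece, chr15:89776082-89776331 (plus strand): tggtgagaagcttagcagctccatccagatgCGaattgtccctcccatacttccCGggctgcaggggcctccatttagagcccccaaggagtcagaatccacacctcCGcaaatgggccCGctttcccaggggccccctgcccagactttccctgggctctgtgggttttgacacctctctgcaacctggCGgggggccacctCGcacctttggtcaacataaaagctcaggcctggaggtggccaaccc
All 250 bases of each lay in the gap or the piece named. The 4 promoters in gaps held 11, 2, 4 and 42 CG in this order, and the 4 in pieces held 29, 34, 6 and 6, so both groups had CG-rich and CG-poor members. The TP73 start is an internal one of this p53 family gene. GRM4 encodes a metabotropic glutamate receptor, FGF6 a growth factor of muscle, EPHB2 and EPHB4 ephrin receptors, PFKFB3 a regulator of glycolysis, GLI2 a Hedgehog effector and MESP2 a transcription factor of somites.

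Most members fell into few pieces with short gaps between them. Of the 2832 peaks, 2551 (90.1%) met 2 knockdown peaks, 253 (8.93%) met 3 and 28 (0.989%) met 4. In total they spanned 27.6 Mb, of which 71.8% lay in pieces, 17.2% in inner gaps and 11% in outer edges. A member had a median of 73.3% of its length in pieces, with a range from 7.69 to 95.9%. In 323 members (11.4%) less than 50% of the length lay in pieces, and in 220 (7.77%) more than 90% did. Both ends of the wild-type peak lay in knockdown peaks in 1217 members (43%), 1 end in 1267 (44.7%) and neither in 348 (12.3%).

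The gaps were close to the shortest found between any peaks. In either list no pair of neighbouring peaks was closer than 0.8 kb, and 1184 of the 3141 inner gaps (37.7%) had exactly this length. A further 596 measured 1 kb and 321 measured 1.2 kb, so 66.9% were at most 1.2 kb long. The median gap was 1 kb, the upper quartile 1.6 kb and the longest 15.2 kb. In 1824 members (64.4%) every gap was at most 1.2 kb, and 61 members (2.15%) had a gap over 5 kb. When knockdown peaks up to 1.2 kb apart were joined first (chosen after seeing the data), 1008 members were left, and with those up to 2 kb apart joined 613 were left.

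**Figure D1:**
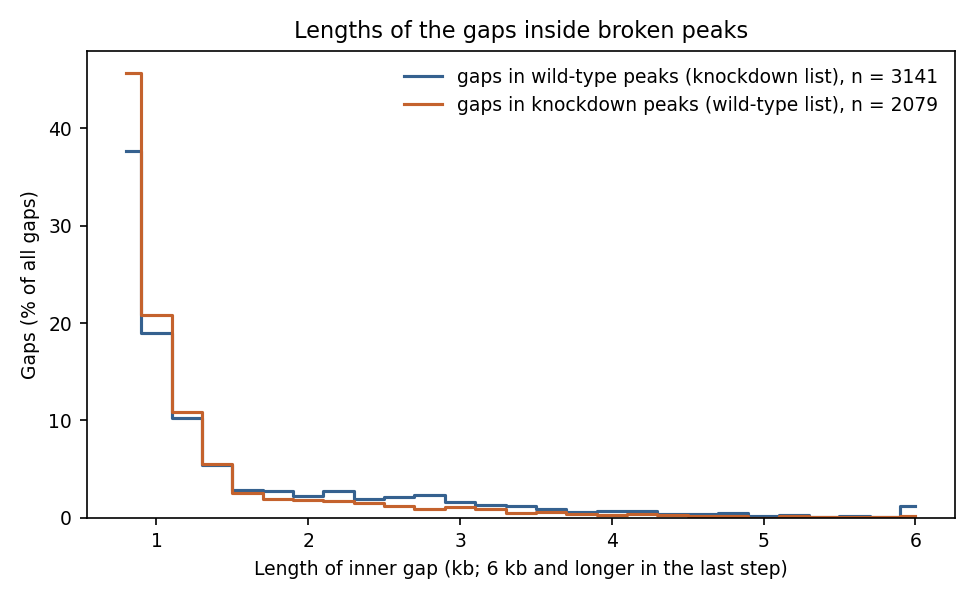
Lengths of the inner gaps of broken wild-type peaks (blue, 3141 gaps) and of knockdown peaks broken in the wild type (orange, 2079 gaps), as a percentage of all gaps of each kind on the vertical axis against gap length in kb. Both have their highest step at 0.8 kb, with 37.7% and 45.7% of the gaps, and gaps of 2.2 to 5 kb make up 17.8% of the blue and 10.2% of the orange ones.

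The pieces were often unequal and often reached beyond the member. In members with 2 pieces the narrower measured a median of 0.410 of the wider. The narrowest piece measured 200 bp, the width of 1 step of the lists, in 247 members (8.72%). The pieces came from 5799 separate knockdown peaks, with a median width of 3.8 kb against 4.2 kb for the 19459 other knockdown peaks that touched a wild-type peak. Of the 5973 pieces, 2619 (43.8%) were knockdown peaks lying wholly inside the member. Per member, the touching knockdown peaks had a median of 2.2 kb outside it (quartiles 0.6 and 4.6 kb, longest 65.2 kb). Length kept therefore means length inside a knockdown peak, which may itself lie mostly outside the member. In 1076 members (38.0%) at least 1 piece belonged to a knockdown peak that also reached another wild-type peak, so there the knockdown list was broken at one place and joined at another. Members that share a knockdown peak are not independent of each other.

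Interruption ran in both directions. With the lists exchanged, 1971 knockdown peaks under 20 kb (5.88% of 33498) each met 2 or more wild-type peaks. Of the peaks that touched the other list at all, 12.7% of 22288 wild-type peaks and 7.99% of 24659 knockdown peaks were broken. Weighted to the widths of the touched wild-type peaks, the knockdown share was 9.99%. Broken knockdown peaks had a median width of 7 kb and a median inner gap of 1 kb, the same gap as in the wild-type members, and 77.4% of their gaps were at most 1.2 kb long.

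**Figure D2:**
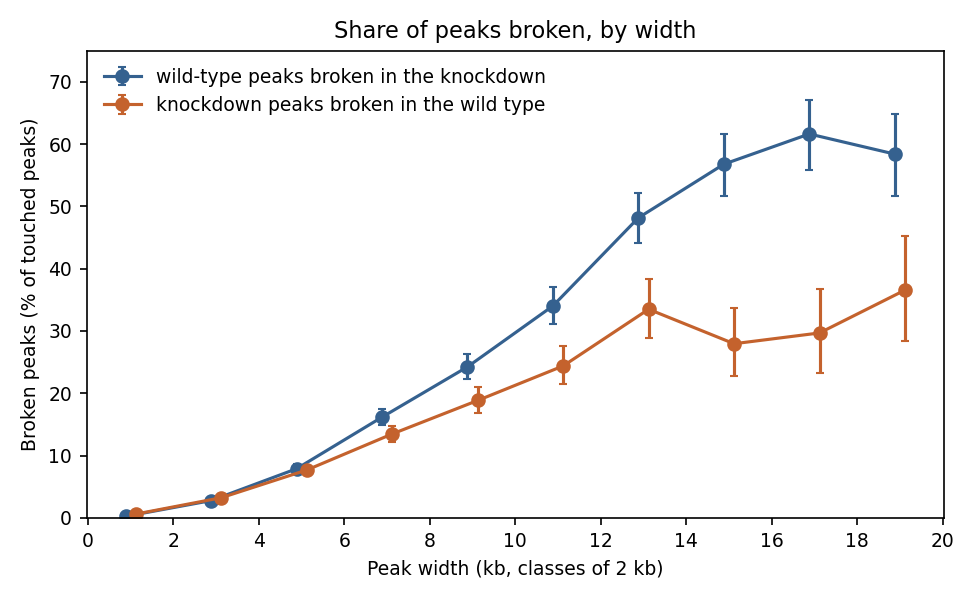
Percentage of touched peaks that were broken (vertical axis) against peak width in classes of 2 kb (horizontal axis), for wild-type peaks in the knockdown list (blue) and knockdown peaks in the wild-type list (orange), with exact 95% binomial intervals that cover counting error only. The lines run together up to 6 kb, and from 12 kb upward the blue points lie between 48.2% and 61.6% and the orange ones between 28.0% and 36.6%.

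Among narrow peaks the 2 directions had similar shares, and among wide ones the wild-type share was higher. Between 2 and 4 kb, 2.76% of the touched wild-type peaks (95% exact binomial interval 2.40 to 3.17%) and 3.23% of the touched knockdown peaks (2.89 to 3.60%) were broken. Between 4 and 6 kb the shares were 7.88 and 7.68%. Between 10 and 12 kb they were 34.0% (31.1 to 37.1%) and 24.4% (21.4 to 27.6%), and between 16 and 18 kb 61.6% (55.9 to 67.1%) and 29.7% (23.3 to 36.7%). These intervals cover counting error within 1 library each and not the spread between cultures.

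Members were wide peaks of middling to high rank. Their median width was 9 kb (quartiles 6.2 and 13 kb), against 4.6 kb for the 19456 peaks that met exactly 1 knockdown peak and 3.4 kb for the 9241 that met none. Their median score, the authors' own value with no unit given, was 46.2, at percentile 78.6 of the wild-type list, against 20.8 for peaks met once. At equal width the order turned. With chromosome 8 left out, the median score between 10 and 12 kb was 62.3 for broken peaks and 88.9 for peaks met once. Between 14 and 16 kb the medians were 105 and 193. The ceiling of 1000 was reached by 69 members (2.44%), and the share of other wild-type peaks there is not given here. The length lost was similar at equal width, since peaks met once, weighted to the widths of the members, had 74.1% of their length in the knockdown peak.

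The width limit of 20 kb divides a continuous range. The widest members, of 19.8 kb, lay at FXYD1, FXYD7 and FXYD5, at PITPNA and at MAMSTR, each with 2 pieces. The narrowest peaks left out, of 20 kb, lay at TNK1 and PLSCR3 with 2 pieces, at CRAT and PTPA with 2 and at IFFO2 with 5.

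Gene starts lay in the pieces more often than the length of the pieces alone would give. The RefSeq table used here gave 21156 starts of 15101 protein-coding genes. Starts on chromosome 8 were not analysed here, so its members were left out of this comparison. Of the 1468 protein-coding starts inside members, 1329 (90.5%, exact 95% binomial interval 88.9 to 92.0%) lay in pieces, which held 71.8% of the bases. Inner gaps held 8.11% of the starts (6.76 to 9.62%) and 17.3% of the bases, and outer edges 20 starts (1.36%) and 11% of the bases. For long non-coding RNA genes, 374 of 436 starts (85.8%) lay in pieces, 47 in gaps and 15 in edges. Neighbouring and alternative starts share a peak, so the intervals, which count starts as separate, are too narrow.

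**Figure D3:**
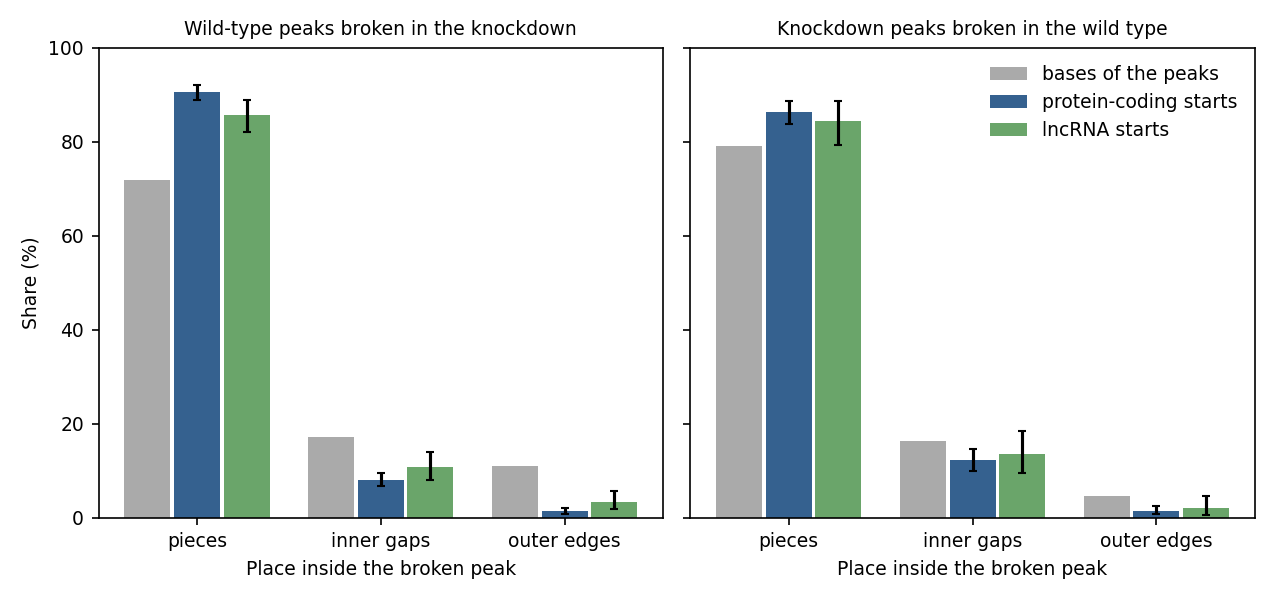
Share of the bases of broken peaks (grey), of protein-coding starts (blue) and of long non-coding RNA starts (green) that lay in pieces, inner gaps and outer edges, in percent, for wild-type peaks broken in the knockdown (left) and knockdown peaks broken in the wild type (right), with exact 95% binomial intervals on the starts. On the left, pieces held 71.8% of the bases and 90.5% of the protein-coding starts, and on the right 79.0 and 86.3%.

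The same order held in the other direction. Of 827 protein-coding starts inside knockdown peaks broken in the wild type, 714 (86.3%, 83.8 to 88.6%) lay in pieces, which held 79.0% of the bases. Distance to the nearest listed protein-coding start showed where the wild-type members were interrupted. Within 1 kb of a start, 91.1% of the 200 bp steps lay in pieces and 7.31% in gaps. Between 1 and 2 kb 82.9% lay in pieces, and between 2 and 5 kb 66.7%, the lowest share. Beyond 10 kb the share in pieces was 69.5%, so interruptions took the smallest share of bases next to starts. For broken knockdown peaks the shares were 89.9% within 1 kb and 74.0% between 2 and 5 kb.

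In wild-type members, starts in pieces were richer in CG than starts in gaps, which did not hold for the knockdown peaks broken in the wild type. Over the 300 bases around a start (250 before and 50 after), protein-coding starts in pieces held a median of 27 CG, those in gaps 22 and those in edges 7.5, against 21 for all listed protein-coding starts, of which 98.0% hold at least 1 CG. At least 20 CG were found at 67.2% of the starts in pieces, 52.9% of those in gaps, 15.0% of those in edges and 53.4% of all. For long non-coding RNA genes the medians were 20 in pieces and 8 in gaps, against 5 for all. In the other direction protein-coding starts had a median of 25 CG in gaps and 26 in pieces, but at least 20 CG stood at 76.2% of those in gaps and 64.0% of those in pieces. The medians for long non-coding RNA genes there were 21 in gaps and 16 in pieces. Of the 959 CG-rich starts inside wild-type members, those with 20 CG or more, 93.1% lay in pieces, and of the 509 others 85.7%.

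Members under 16 kb held a start in a smaller share than unbroken peaks of their width. On the 21 chromosomes with listed starts, 964 of 2757 members (35.0%) held a protein-coding start, against 46.4% of the peaks met once after weighting to the same widths, and 37.1% without weighting. Between 2 and 4 kb the shares were 9.55 and 30.4%, and between 14 and 16 kb 48.4 and 59.8%. In the widest classes they were 54.1 and 52.7% (16 to 18 kb) and 60.5 and 59.1% (18 to 20 kb). The 964 members with a start had a median width of 11.2 kb and a median score of 80.3, and the 1793 without one 8 kb and 33.5. Pieces held 75.1% of the length of the first and 69.5% of the second. In 775 of the 964 (80.4%) a start lay in the widest piece, which took 52.8% of their length. By both annotated ends of every gene, 1310 members (46.3%) held a protein-coding gene end, 123 lay within 2 kb of one, 717 (25.3%) lay inside a gene body and 682 (24.1%) outside genes. The same classes are not given for other wild-type peaks, so nothing particular to the members is drawn from these shares. Exons, introns and UTRs were not analysed here.

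**Figure D4:**
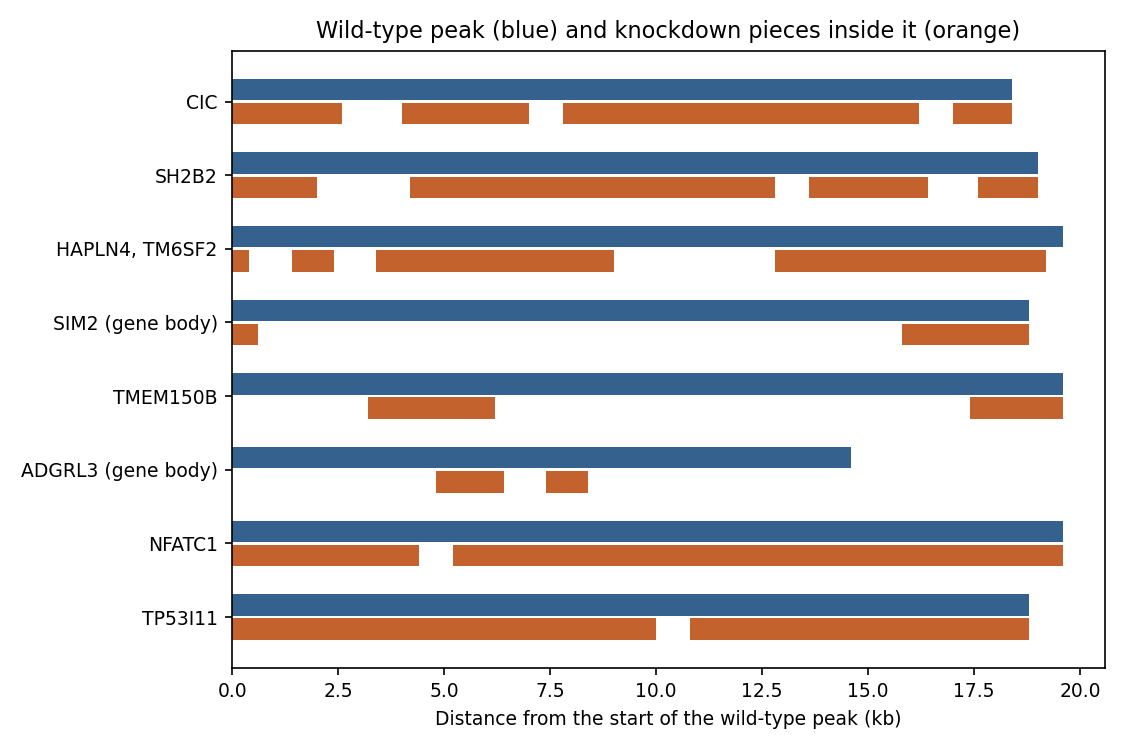
Position of the knockdown pieces (orange) inside 8 wild-type peaks (blue), in kb from the start of the wild-type peak. The first 3 rows have 4 pieces each, SIM2 and TMEM150B lost stretches of 15.2 and 11.2 kb, ADGRL3 lost mainly its outer parts, and NFATC1 and TP53I11 were interrupted by a single gap of 0.8 kb.

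The peaks with the most pieces met 4 knockdown peaks. Of the 10 first by pieces and score, 4 lay on chromosome 19 (CIC, HAPLN4 with TM6SF2, C2CD4C, and PLIN4). This chromosome held 315 of all 2832 members, and nothing is drawn from so small a count. The peak at CIC, which encodes a transcriptional repressor, measured 18.4 kb in the wild type (chr19:42269601-42288000), with pieces of 2.6, 3, 8.4 and 1.4 kb and gaps of 1.4, 0.8 and 0.8 kb. At SH2B2, an adaptor of receptor tyrosine kinases, a peak of 19 kb (chr7:102279601-102298600) met pieces of 2, 8.6, 2.8 and 1.4 kb. The peak at HAPLN4 and TM6SF2, a brain matrix link protein and a regulator of liver lipid export, kept 13.4 of 19.6 kb (chr19:19256401-19276000). PLIN4, which encodes a lipid droplet protein, kept 16.6 of 19.6 kb. The others lay at P3H4 with FKBP10, both of which act in collagen processing, at FHOD1 with SLC9A5, at MRPL28, inside KCNQ1, and outside genes on chromosome 14. All 10 kept between 66.7 and 84.7% of their length.

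The longest losses lay inside or beside genes of several kinds. Inside SIM2, a transcription factor gene of chromosome 21, a peak of 18.8 kb (chr21:36718801-36737600) kept only pieces of 0.6 and 3 kb at its ends, with 15.2 kb between them. At TMEM150B a peak of 19.6 kb kept 5.2 kb (26.5%), and inside SLC38A12 a peak of 14.8 kb kept 4 kb (27%). At FBXO46 and MEIOSIN, the second a regulator of entry into meiosis, 5 of 16.4 kb were kept (chr19:45729201-45745600), and the starts of both genes lay in the gap of 10.8 kb. These starts are CG-rich, with 26 and 30 CG. The peaks inside CRTC1, a CREB coactivator, and at APOC1, an apolipoprotein, kept 25.8 and 31.9%. At SLC26A6 with TMEM89 44.4% was kept, and at RNPEPL1 54.2%. The other 2 of the 10 lay outside genes, on chromosome 11 (11.9% kept) and chromosome 1 (38.8%). All 10 scored below 1000, from 9.88 to 209.

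The members with the smallest share left were mostly narrow. Inside KCNJ12, an inward rectifier channel, a peak of 5.2 kb (chr17:21386801-21392000) kept 0.2 kb at each end, 7.69% of its length. KCNJ12 has a near-identical copy, so reads there may not be placed with certainty. Inside PPL, a junction protein gene, 0.4 of 4.4 kb was left, inside ELFN2 0.8 of 5.2 kb and inside LARP1 0.6 of 3.6 kb. In these 4 peaks both pieces lay at the ends, with a single gap between them. Each such piece may be the tip of a knockdown peak lying mostly outside, which was not examined peak by peak. The peak inside ADGRL3, a latrophilin receptor of synapses, differed, since its pieces of 1.6 and 1 kb stood 1 kb apart near the middle of 14.6 kb and the loss lay in outer edges of 4.8 and 6.2 kb. At the other extreme, the 10 members with the largest share left kept 95.3 to 95.9% and had a single gap of 0.8 kb. The rule sets this upper end, since members are under 20 kb and no gap is shorter than 0.8 kb. They lay at NFATC1, a calcium-regulated transcription factor, TP53I11, ULBP1, CCDC88B with RPS6KA4, SEPTIN9, DYSF, PDE4C, CABLES2 with RBBP8NL and MICAL3, and outside genes on chromosome 5.

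Of the 69 members at the ceiling of the score, the 10 widest kept 74.7 to 95.9% of their length. The 19.8 kb peak over the FXYD regulators of the sodium pump (chr19:35137201-35157000) kept 8.4 and 6.4 kb around a gap of 4.8 kb, the longest among them. At CHAT and SLC18A3, which share a locus and encode the enzyme and the vesicle transporter of acetylcholine, 13 and 2.2 kb of 19.2 kb were kept, with a gap of 0.8 kb and an outer edge of 3.2 kb. LEF1, a WNT effector, kept 1.4 and 13.6 of 19 kb. RNF220 kept 3 pieces, and the peaks at TCAP with PNMT, NECAB3 with ACTL10 and C20orf144, and KRTAP10-12 with TSPEAR kept 2 each.

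Lists of genes by function were read against all protein-coding genes. A gene was counted when a broken peak lay within 2 kb of one of its listed starts or, for the 3872 of 18973 genes with no listed start, of either annotated end. Of all 18973 genes 1626 (8.57%) had a broken peak, and of the 11179 with any touched wild-type peak under 20 kb there, 14.5% had one. Of the 832 list genes 99 had one (11.9%), which was 18.4% of those with a touched peak. The lists were described by these counts, with no adjustment for peak width, and nothing particular to a list is drawn from them. The median share kept was 75.9% over the peaks of the 1626 genes.

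Developmental transcription factor genes had few touched peaks under 20 kb. Of 98 homeobox genes 23 had one, and 2 of these (8.70%) had a broken one, against 14.5% of all genes with a touched peak. Wild-type peaks of 20 kb or more were not counted, so genes with only such wide peaks are missing from these shares. PAX8, a factor of thyroid and kidney, kept 9 and 2.6 kb of 12.4 kb. Of 93 T-box, GATA, forkhead, SOX and basic helix-loop-helix genes 6 were broken (16.2% of the 37 with a touched peak). MESP2, a somite factor, kept 4.8 and 0.2 kb of 8.2 kb around a gap of 3.2 kb. SOX6 kept 2.2 and 3.4 kb of 8.4 kb. MYOG, a muscle factor, kept 3.8 of 13.4 kb, and its start lay in the outer edges, which measured 8.8 kb. TBX21, FOXE3 and TCF15 had gaps of 0.8, 1 and 1 kb.

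Signalling genes were spread over the pathways. Of the WNT genes 9 of 46 with a touched peak (19.6%) were broken, among them the ligands WNT2B, WNT3, WNT4 and WNT9B. WNT3 kept 92.5% of 16 kb, in pieces of 0.2 and 14.6 kb, and WNT4 91.4% of 14 kb, in pieces of 7 and 5.8 kb. NOTUM, an enzyme that inactivates WNT ligands, kept 1 and 1.2 kb of 7.2 kb (chr17:81946601-81953800), with 5 kb between them. The co-receptor gene LRP5 kept 83.7%. Of the BMP and TGF-beta genes 5 of 47 (10.6%) were broken. SMAD7, an inhibitor of the pathway, kept 4 pieces of 5.8, 3.4, 2.2 and 4.8 kb in 19.2 kb (chr18:48923801-48943000). GDF7 kept 11.8 and 3.2 kb of 16.8 kb, SMAD3 92.1% of 12.6 kb and NODAL 6.2 and 0.2 kb of 7.2 kb. Of the FGF genes 5 of 29 (17.2%) were broken, with FGF6, whose start lay in a gap of 3.4 kb, SPRY4, a feedback inhibitor, which kept 60.8% of 10.2 kb, and FGFR4, which kept 1 of 3.4 kb. Of the Hedgehog and Notch genes 3 of 25 (12%) were broken, all of them Hedgehog genes. GLI2 kept 4, 5.8 and 3.2 kb of 17.2 kb, GLI1 59.0% of 16.6 kb and the inhibitor gene SUFU 83.3% of 6 kb.

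Among the genes of the Polycomb machinery itself, 4 of 23 PRC1 genes (17.4%) and 2 of 11 PRC2 genes (18.2%) with a touched peak were broken. PHC2, a polyhomeotic subunit of PRC1, kept 5 and 6.8 kb of 17 kb (chr1:33338601-33355600) with a gap of 2.6 kb. CBX7, the chromodomain subunit, kept 11 and 1 kb of 13 kb. L3MBTL2, of a variant PRC1, kept 0.8 and 2.2 kb of 4.2 kb, and WDR5, also part of one, 8.8 and 1.2 kb of 13.8 kb. The starts of all 4 lay in pieces. Of PRC2, the accessory subunit genes JARID2 and PHF19 kept 86.4% of 8.8 kb and 76.0% of 15 kb, with starts in pieces. Of the H2A deubiquitinases and their partners 1 of 11 was broken, USP3, which kept 2, 10 and 0.6 kb of 16.4 kb. None of the 10 genes of the m6A machinery with a touched peak was broken, a count of 0 that allows a share of up to 30%. YTHDF1 thus had no broken peak within the window of 2 kb used for these counts. Its gene body outside this window was not counted.

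Of 22 pluripotency genes with a touched peak 4 (18.2%) were broken. KLF2 kept 1.2 and 6 kb of 10.4 kb, PODXL, a surface glycoprotein of stem cells, 1.4 and 6.4 kb of 9 kb, and L1TD1 2.2 and 1.4 kb of 4.4 kb. UTF1, a chromatin-bound factor of stem cells, kept 16 and 1.8 kb of 18.8 kb. Among the cell cycle inhibitors 4 of 12 (33.3%) were broken. CDKN2A and CDKN2B lay in neighbouring peaks of 16.2 and 13.4 kb, of which 95.1 and 79.1% were kept. Both met a knockdown peak with a score of 273.385, so 1 knockdown peak may touch both, and they may not be separate events. CDKN1B kept 88.4% of 13.8 kb. TP73 kept 2.2, 4.2 and 3.2 kb of 15.2 kb (chr1:3695001-3710200), with the internal start shown above in the gap of 4.4 kb. Its first start lay in a piece of another broken peak. Of the DNA methylation genes 3 of 12 (25%) were broken, the de novo methyltransferase gene DNMT3A, which kept 78.5% of 18.6 kb, and MBD1 and MBD3, which encode methyl-CpG binding domain proteins and kept 86.5 and 81.3%.

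Of the axon guidance genes 15 of 54 (27.8%) were broken, with 5 genes of semaphorins and 4 of plexins. The peak at EPHB4 kept 7 and 2.6 kb of 16.2 kb around a gap of 6 kb, EPHA10 kept 0.4 and 6 kb of 10.2 kb, and SEMA5B kept 3 pieces in 18.4 kb with its start in an outer edge. EPHB2 kept 1.2 and 3.2 kb of 6.2 kb (chr1:22708001-22714200), and both of its listed starts inside the peak lay in the gap of 1 kb. Of the potassium channels 8 of 57 (14.0%) were broken, close to the share of all genes. KCNN1 kept 65.7% of 14 kb and KCNJ10 70.0% of 8 kb. Of the GABA and glutamate receptors 6 of 33 (18.2%) were broken. GRM4 kept 1.6 and 0.4 kb of 6 kb (chr6:34106601-34112600) with its start in the gap of 4 kb, GRIK4 80.7% of 16.6 kb and GRIK5 67.9% of 15.6 kb. Of the collagens 9 of 33 (27.3%) were broken. COL1A1, the main chain of bone and skin collagen, kept 2.8, 1.4, 7.4 and 0.6 kb of 16.4 kb. COL20A1 kept 75.7% of 14.8 kb and COL6A3 3.6 of 7.2 kb. The COL6A3 start lay in a piece, but 214 of the 250 bases before it lay in the gap. COL4A1 and COL4A2 share 1 broken peak, so they count as 1 event.

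Of the glycolysis genes 8 of 21 with a touched peak (38.1%) were broken, against 14.5% of all genes with a touched peak. This share, not adjusted for peak width, was the largest among the 19 lists, on 8 genes only. PFKFB3 kept 5.6 and 1.2 kb of 11.2 kb around a gap of 4.4 kb (chr10:6141801-6153000). ENO3, the muscle enolase, kept 2, 11.6 and 2.4 kb of 19 kb, PFKP 6 and 1.6 kb of 10 kb and PFKL 82.5% of 11.4 kb. ALDOC, the brain aldolase, kept 85.1% of 9.4 kb with its start in the gap of 0.8 kb. Of the housekeeping genes 5 of 36 (13.9%) were broken. CHMP2A kept 72.9% of 14 kb and EEF2 81.0% of 12.6 kb. Over all lists, 80 genes had a listed start inside a member. It lay only in pieces in 73 of them, 5 had a start in a gap (TP73, GRM4, FGF6, EPHB2 and ALDOC) and 2 in an edge (MYOG and SEMA5B).

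The share of touched peaks that were broken differed between chromosomes. It was highest on chromosome 19, with 315 of 1607 (19.6%, exact 95% binomial interval 17.7 to 21.6%), followed by 17 (17.5%), 22 (17.0%) and 11 (16.8%), and lowest on 18, with 22 of 355 (6.2%, 3.92 to 9.23%), and 13 (7.35%). Width went with part of this. From the widths of their peaks alone, 258 broken peaks were computed for chromosome 19 and 35.4 for chromosome 18, so the counts were 1.22 and 0.621 times those. The knockdown peaks broken in the wild type had their highest share on chromosome 19 too (12%) and their lowest on chromosome 13 (3.51%). Once a peak was broken, the chromosomes differed little, with 68.0 to 74.6% of the members' length in pieces and median gaps of 0.8 or 1 kb.

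**Figure D5:**
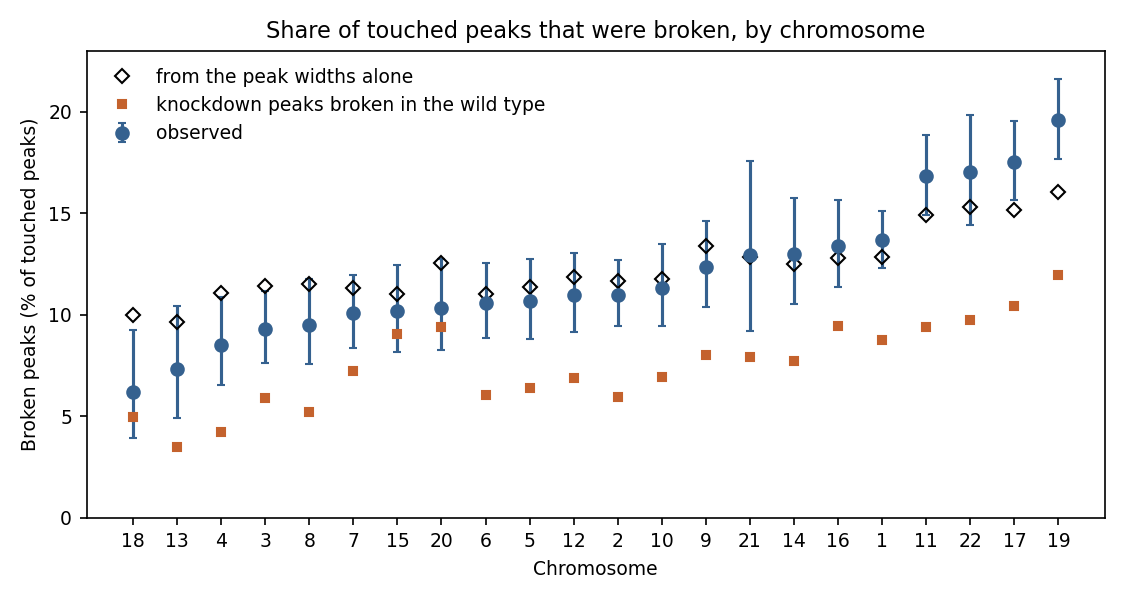
Percentage of touched peaks that were broken (vertical axis) on chromosomes 1 to 22, ordered by that share, for wild-type peaks (blue, with exact 95% binomial intervals covering counting error only), the share computed from peak widths alone (diamonds) and knockdown peaks broken in the wild type (orange). The wild-type share runs from 6.2% on chromosome 18 to 19.6% on chromosome 19, a wider range than the 9.63 to 16.1% given by width.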

How the data were processed

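The samples were 4 libraries of H1 cells, and a peak list was used for each of the 2 H2AK119ub libraries. The authors deposited intervals with a score per peak, on an unstated basis. It was used only to rank or filter peaks within a list. Without roles or order, hg38, SICER 1.1, MACS2 2.1.0, Picard, Trimmomatic 0.35, SAMtools 1.3.1 and Bowtie2 2.2.5 are listed per the submitters' processing notes. Deposited ends were read as inclusive, since starts fall on multiples of 200 bp and ends 1 bp below them.

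Overlaps, gaps and gene positions were computed in Python 3.11.15 with pandas 2.3.3, checked on simulated peaks with planted splits. Groups came from sample titles. Gene coordinates and starts came from RefSeq tables of GRCh38.p14. Of 18973 protein-coding genes on chromosomes 1 to 22, 15101 (79.6%) had a listed start, and 153 genes on scaffolds were left out. Peaks were named by genes with a start or end within 2 kb, else by the gene body at their midpoint. Named peaks followed a rule: the 10 extremes by pieces, total gap, share kept (both ends) and score, all list members of the Polycomb, deubiquitinase, m6A and pluripotency lists, and the 3 longest total gaps in each other list; a few further list genes were named after their values were seen. Some peaks that the rule names are not reported here. The members and lists were chosen with earlier results of these data known.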

Additional observations from a re-analysis of the deposited data

How the results depend on the processing

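No paired analysis was possible because each group had 1 H2AK119ub library. The unknown depth limits every count, since a gap is a stretch with no called peak. The number of broken peaks moved by over 1.5 times under 5 settings. From 2832 it became 613 with touching peaks up to 2 kb apart joined, 1008 with those up to 1.2 kb apart joined, 1536 when 50% of each touching peak had to lie inside, 975 in the upper 50% of each list by score and 1608 under 10 kb. The knockdown peaks broken in the wild type went from 1971 to 223, 461, 544 and 678 under the first 4 of these. The share of touched peaks broken (12.7%) became 2.75, 4.52, 8.28, 8.56 and 8.20% in the same order, 11.1% without touching peaks under 2 kb, 14.9% with no width limit and 13.8% with lists of equal covered length. The median gap of 1 kb became 3 and 2.4 kb after joining, which removes shorter gaps by construction. The length kept (71.8%) became 62.1 and 65.3% after joining, 72.0% with 50% inside, 74.5% in the upper 50%, 69.2% under 10 kb, 73.0% without touching peaks under 2 kb and 77.4% with no limit. The share of starts in pieces (90.5%) became 92.5 and 93.5% after joining, 93.8% in the upper 50%, 83.6% under 10 kb, 93.3% without touching peaks under 2 kb and 93.4% with no limit. The share of genes with a broken peak (8.57%) became 9.98% within 5 kb, 7.96% with the start inside the peak and 10.5% with both ends of every gene. Where construction does not give it, the cause was not tested. The 25 other values, those with chromosome X among them, stayed within 1.5 times the main count or inside its 95% interval. For the length kept, this interval counts steps of 200 bp as separate and is too narrow, so a shift from 71.8 to 72.0% is listed as a change. Joining at 1.2 kb, lists of equal length and both gene ends were chosen after seeing the data. In every setting more wild-type than knockdown peaks were broken, but these counts were not taken at equal width. In the main setting the 2 directions had similar shares of touched peaks broken up to a width of 6 kb.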
